A study of Mus musculus with 12 samples.

Results

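The genes described here are 8 mouse genes whose proteins sit in amyloid deposits or take amyloid peptides apart: Apoe, Clu, Apcs, Hspg2, Agrn, Ide, Mme and Ece1. They were chosen by name. Every probe set that the platform annotation pairs with one of these symbols alone was taken, which gave 16 probe sets of the 45141 on the array and 8 of the 17097 genes measured. The arrays came from pancreatic islets of mice aged 12 weeks, 3 arrays for each of 4 genotypes. The hIAPP-TgxBACE2-KO mice carried the human islet amyloid polypeptide (hIAPP) transgene and lacked BACE2, the hIAPP-Tg mice carried the transgene alone, the BACE2-KO mice lacked BACE2 alone, and the WT mice had neither change. All 12 arrays bear the strain label B6;129P2-Bace2tm1Bdes/J, and all mice ate standard chow. The labels do not name the promoter of the transgene or say whether islets of several mice were pooled, and the p-values below therefore rest on the spread between arrays alone, which may be technical.

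Islet amyloid forms when islet amyloid polypeptide, a hormone that beta cells release with insulin, folds into insoluble fibrils. The human peptide does this readily and the mouse peptide does not, which is why a human transgene is used in mice. Fibrils are found together with helper proteins: apolipoprotein E, clusterin and serum amyloid P, and the heparan sulfate proteoglycans perlecan and agrin. Soluble peptide is cut by zinc metalloproteases, among them insulin-degrading enzyme, neprilysin and endothelin-converting enzyme. BACE2, which beta cells make, is an aspartyl protease related to BACE1, the beta-secretase of the amyloid precursor protein.

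Values are log2 expression levels, so a difference of 1 is a doubling, and levels are compared between samples for the same probe set only. Where a gene had several probe sets, the one with the highest mean over the 12 arrays stands for the gene (set 1) and the others are numbered in falling order. Beta cell markers averaged between 9.82 and 10.38 on every array, as the islet label says. The exocrine acinar markers averaged between 9.41 and 11.97. The targeted gene, Bace2, ran from 10.65 to 10.95 in hIAPP-TgxBACE2-KO islets, from 10.89 to 11.09 in hIAPP-Tg islets, from 10.85 to 11 in BACE2-KO islets and from 10.91 to 11.18 in WT islets. The files do not say whether its probes lie inside the deleted part, so these levels do not check the labels. The arrays of hIAPP-Tg replicate 1 and hIAPP-TgxBACE2-KO replicate 1 lay farthest out on the first principal component, which held 20.4% of the variance, at scores of -28.3 and -16.0.

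Of the 8 genes, 7 had a mean above the low-level filter of 3.43, the 25th percentile of all genes. Mme lay below it. None of the 7 passed the test (limma, Benjamini-Hochberg adjusted p below 0.05 over 12825 genes, 0 to 2 at an unadjusted p below 0.05) in any of the 8 comparisons fitted to the 12 arrays. The gene that differed most was Apoe, with a level 4.13 times higher in hIAPP-Tg than in WT islets and no overlap between the arrays. The genes differed widely in how much they varied between arrays of one genotype. The pooled standard deviation was 0.62 for Apoe, 0.53 for Clu and 0.39 for Agrn, against a median of 0.17 over the tested genes, and only 0.08 for Ide.

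**Figure D1:**
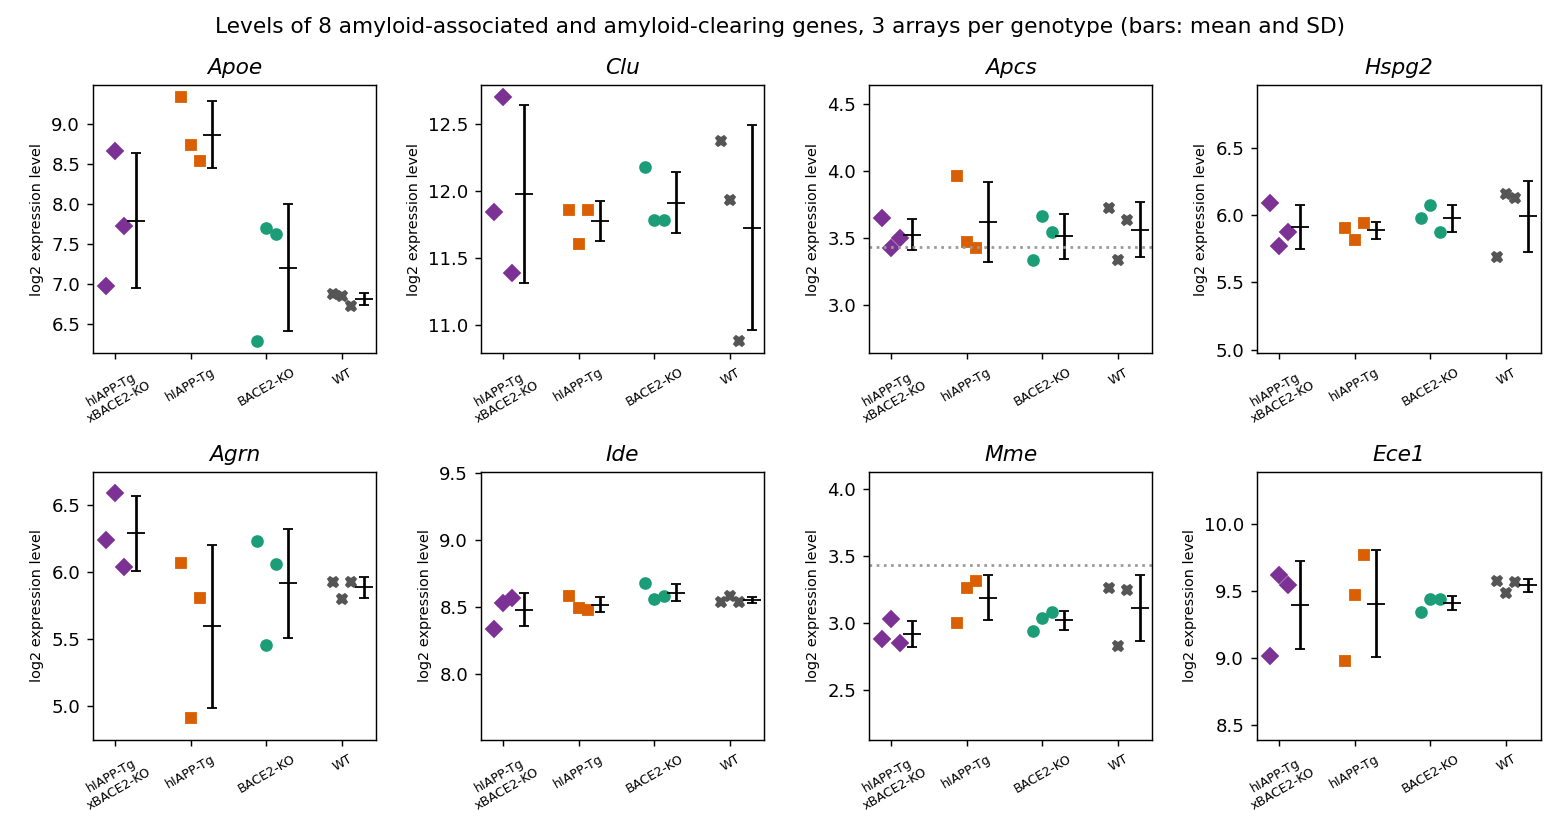
Log2 expression levels of the 8 genes, 1 panel per gene with its own vertical axis of at least 2 log2 units. Points are arrays, in the order hIAPP-TgxBACE2-KO, hIAPP-Tg, BACE2-KO and WT, bars give the mean and SD (n = 3), and the dotted line is the filter level of 3.43. Apoe is highest in hIAPP-Tg islets (8.53 to 9.33), Ide stays between 8.34 and 8.68 on all 12 arrays, and Mme lies below the dotted line on every array.

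Apoe encodes apolipoprotein E, a lipid carrier that macrophages make in quantity and that binds amyloid fibrils. Its single probe set read 6.98, 8.66 and 7.72 in hIAPP-TgxBACE2-KO islets, 9.33, 8.73 and 8.53 in hIAPP-Tg islets, 6.29, 7.70 and 7.62 in BACE2-KO islets and 6.87, 6.85 and 6.73 in WT islets. All 3 hIAPP-Tg arrays lay above all WT and all BACE2-KO arrays, while the hIAPP-TgxBACE2-KO arrays spread from near the WT level to the hIAPP-Tg level. The genotype means were 7.79 ± 0.84 in hIAPP-TgxBACE2-KO, 8.86 ± 0.42 in hIAPP-Tg, 7.20 ± 0.79 in BACE2-KO and 6.82 ± 0.08 in WT islets (SD, n = 3 each). By mean level the order was hIAPP-Tg, hIAPP-TgxBACE2-KO, BACE2-KO and WT, and the arrays of each genotype overlapped those of its neighbour in that order.

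The difference in Apoe between hIAPP-Tg and WT islets was 2.05 (SE 0.41, 95% interval 1.16 to 2.93), the fifth smallest p of the 12825 genes. In the limma fit of all 12 arrays it had an unadjusted p of 0.000266 and an adjusted p of 0.681, so it did not pass. In a fit of these 6 arrays alone, which estimates the spread without the more scattered BACE2-KO and hIAPP-TgxBACE2-KO arrays, the same difference had an SE of 0.19 and a limma adjusted p of 0.00939. Leaving out single arrays gave differences from 1.81 to 2.21.

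Between hIAPP-TgxBACE2-KO and WT islets Apoe differed by 0.97 (SE 0.41, limma adjusted p = 0.553), again without overlap. Single arrays moved its size: it was 0.53 without hIAPP-TgxBACE2-KO replicate 2 and 1.37 without replicate 1. Over its 26 alternatives this difference ran from 0.50 to 1.37. Between hIAPP-TgxBACE2-KO and hIAPP-Tg islets it was -1.08 (SE 0.41, unadjusted p = 0.0210, limma adjusted p = 0.480), with overlapping arrays. That difference was -0.67 without hIAPP-TgxBACE2-KO replicate 1, and -0.44 without both arrays farthest out on the first principal component, a setting chosen after seeing the data. Other settings made it larger: over its 26 alternatives the difference ran from -1.51 to -0.44. Between BACE2-KO and WT islets it was 0.39 (SE 0.41), and between hIAPP-TgxBACE2-KO and BACE2-KO islets 0.58 (SE 0.41), neither past the test. Single arrays decided both sizes: the first was 0.84 without BACE2-KO replicate 1, 0.14 without replicate 2 and 0.18 without replicate 3. The second was 0.13 without BACE2-KO replicate 1, 0.15 without hIAPP-TgxBACE2-KO replicate 2 and 0.99 without hIAPP-TgxBACE2-KO replicate 1.

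Whether the transgene moved Apoe differently with and without BACE2 was tested as an interaction. It was -1.46 (SE 0.58, 95% interval -2.72 to -0.21), with an unadjusted p of 0.0255 and a limma adjusted p of 0.9995, so a difference between the 2 transgene effects was not established. Averaged over both BACE2 states the transgene difference was 1.32 (SE 0.29, limma adjusted p = 0.644), and averaged over both transgene states the difference with BACE2 loss was -0.35 (SE 0.29, limma adjusted p = 0.727). Among fits that left out a single array, the second value ran from -0.56 without hIAPP-TgxBACE2-KO replicate 2 to -0.12 without BACE2-KO replicate 1. Over all its 25 alternatives it ran from -0.56 to -0.03.

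**Figure D2:**
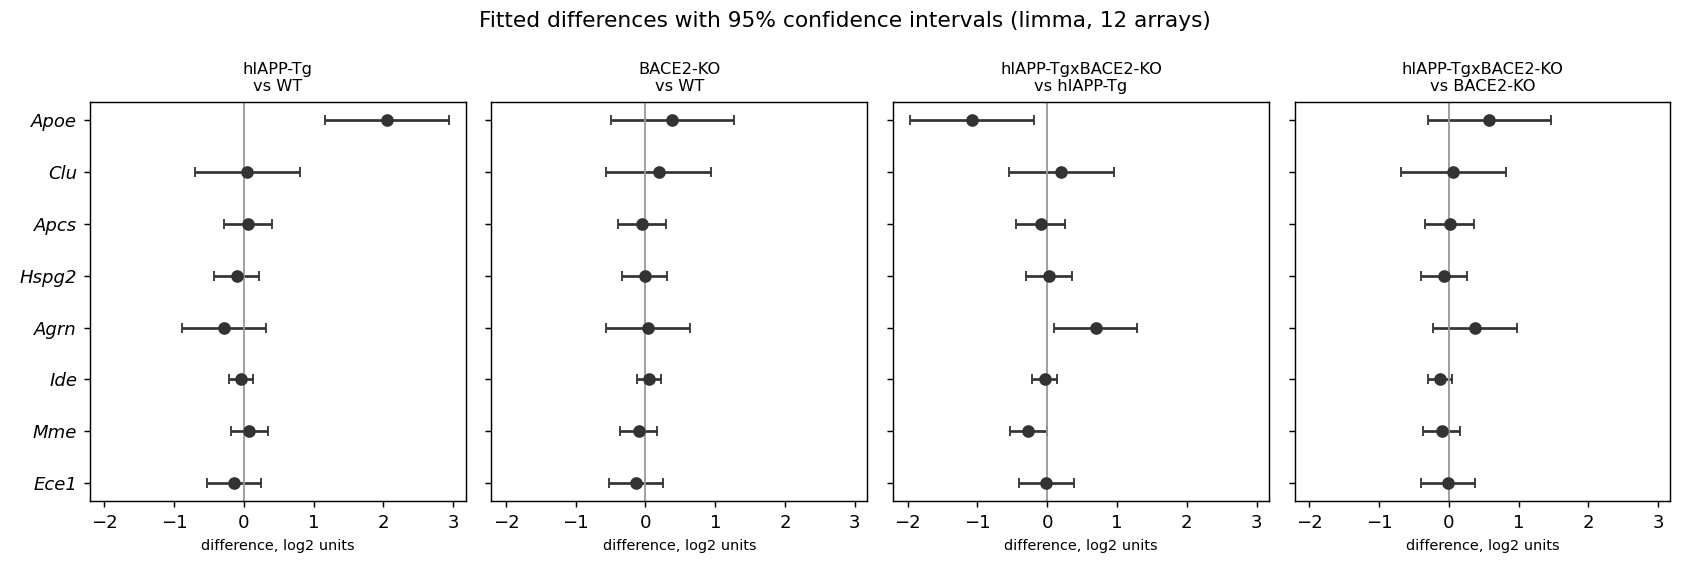
Fitted log2 differences of the 8 genes in 4 comparisons, the first-named genotype minus the second, with 95% confidence intervals from limma. Apoe stands apart at 2.05 in hIAPP-Tg against WT islets, while the intervals of Ide are the narrowest. The values of Mme come from the fit without the low-level filter.

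Apoe moved from array to array with the markers of macrophages, cells that live in islets and make apolipoprotein E. The 19 macrophage markers averaged 5.37, 6.42 and 5.80 in hIAPP-TgxBACE2-KO islets, 6.33, 5.86 and 6.13 in hIAPP-Tg islets, 5.40, 5.69 and 5.79 in BACE2-KO islets and 5.72, 5.63 and 5.42 in WT islets. Every hIAPP-Tg array was above every WT array, and the hIAPP-TgxBACE2-KO array with the highest marker mean was also the one of its genotype with the highest Apoe. Of the list, Itgam and Mrc1 were under the filter level and 17 were tested. In hIAPP-Tg against WT islets 16 of these 17 were higher, with a median difference of 0.63 against -0.03 over all tested genes, 9 had no overlap (9.16% of all genes) and none passed the test (limma, 6 at an unadjusted p below 0.05, as had 4.52% of all genes). Markers of other cell types stood apart in the same comparison. All 6 tested lymphocyte markers were higher, with a median difference of 0.66, and were lower in hIAPP-TgxBACE2-KO than in hIAPP-Tg islets, with a median of -0.52. Of these 6, 2 had no overlap between hIAPP-Tg and WT islets. Lymphocyte markers averaged 3.96 to 4.16 in hIAPP-TgxBACE2-KO islets, 4.10 to 5.23 in hIAPP-Tg islets, 3.95 to 4.54 in BACE2-KO islets and 3.87 to 4.05 in WT islets, with 3 of the 9 measured under the filter level. The 5.23 was hIAPP-Tg replicate 3 alone, where Ms4a1 read 6.73 against 3.19 and 3.09 on replicates 1 and 2. Those 2 arrays, at 4.30 and 4.10, lay within the range of the BACE2-KO arrays. In hIAPP-Tg against WT islets 11 of 14 stellate and fibroblast markers were higher (median 0.28) and 16 of 16 beta cell markers were lower (median -0.14). Of all tested genes 41.58% were higher in this comparison. In each list 2 markers had no overlap. The beta cell markers averaged 9.82, 10.13 and 10.32 on hIAPP-Tg replicates 1, 2 and 3, and 10.27 to 10.38 in WT islets. None of these markers passed the test (limma, 4 lymphocyte, 2 stellate and fibroblast and 4 beta cell markers unadjusted). Their part in the Apoe difference was not tested.

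Over the 12 arrays Apoe and the macrophage mean had a Pearson r of 0.889 (permutation p = 0.00011, adjusted p = 0.00616 over the 56 relations computed) and a Spearman rho of 0.867 (permutation p = 0.00045, adjusted p = 0.0252). Without the 2 arrays farthest from the median of the marker mean r was 0.845 (adjusted permutation p = 0.0538). For deviations from genotype means, which leave out the differences between genotypes, r was 0.867 (exact permutation p = 0.0116 within genotypes, adjusted p = 0.162). With the macrophage mean as a covariate the hIAPP-Tg minus WT difference in Apoe was 1.17 (SE 0.27, limma adjusted p = 0.817), against 2.05 without it, and the hIAPP-TgxBACE2-KO minus hIAPP-Tg difference was -0.66. In whole islets, more macrophages and more Apoe RNA per cell cannot be told apart. The part of macrophage content in the Apoe difference was not tested further.

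The 3 genes whose levels were most like those of Apoe over the 12 arrays were Lyz2 (r = 0.952), the lysozyme of macrophages, Ctss (r = 0.921), a lysosomal cathepsin, and Tyrobp (r = 0.894), a signalling adaptor of myeloid receptors. All 3 are also in the macrophage list. Lyz2 read 6.23, 8.01 and 7.23 in hIAPP-TgxBACE2-KO islets, 8.76, 8.25 and 8.47 in hIAPP-Tg islets, 6.54, 7.10 and 7.18 in BACE2-KO islets and 6.61, 6.73 and 6.71 in WT islets. As with Apoe, the hIAPP-Tg arrays were the high ones, and hIAPP-TgxBACE2-KO replicate 1 was the lowest array of its genotype.

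**Figure D3:**
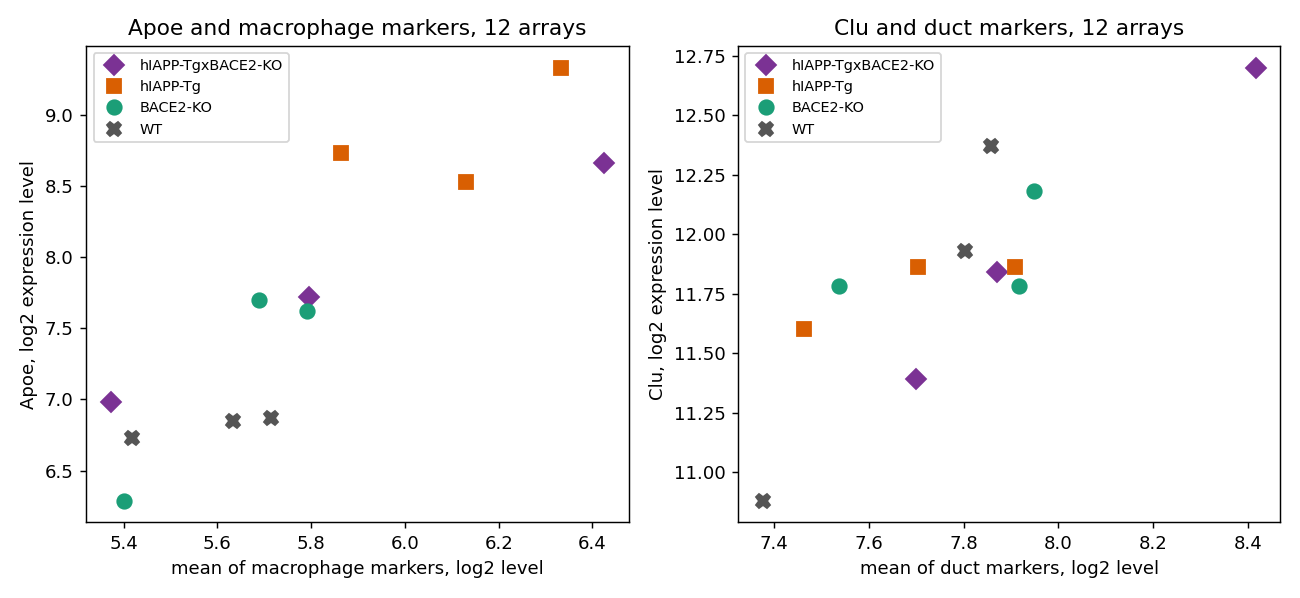
Each of the 12 arrays by the mean log2 level of a cell type's markers (horizontal) and the log2 level of a gene (vertical). On the left, Apoe against 19 macrophage markers (r = 0.889). On the right, Clu against 8 duct markers (r = 0.837), where a hIAPP-TgxBACE2-KO and a WT array form the 2 ends.

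Clu encodes clusterin, a secreted chaperone that keeps misfolded peptides in solution. Its set 1 read 11.84, 12.70 and 11.39 in hIAPP-TgxBACE2-KO islets, 11.86, 11.60 and 11.86 in hIAPP-Tg islets, 12.18, 11.78 and 11.78 in BACE2-KO islets and 12.37, 11.93 and 10.88 in WT islets. The highest and the lowest array belong to the hIAPP-TgxBACE2-KO and WT genotypes, and all groups overlap. The 3 probe sets of Clu moved together (r between 0.99 and 0.993), so the spread within genotypes was seen by each set. Differences between genotypes were 0.25 or less in set 1, with a 95% interval of -0.71 to 0.80 for hIAPP-Tg against WT islets. Single WT arrays decided their signs. Against WT islets the hIAPP-TgxBACE2-KO difference was 0.57 without WT replicate 1 and -0.17 without WT replicate 3. The hIAPP-Tg difference was 0.37 and -0.38 in these settings, and the BACE2-KO difference 0.51 and -0.24, so no direction is given for Clu.

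Among the marker means, Clu followed those of the duct (r = 0.837, permutation p = 0.00163, adjusted p = 0.0456, and rho = 0.733, adjusted permutation p = 0.118). The relation was weaker without the 2 arrays farthest from the median of the duct mean, hIAPP-TgxBACE2-KO replicate 2 and WT replicate 3. There r was 0.545 (adjusted permutation p = 0.743), over a narrower range of duct means. For deviations from genotype means r was 0.861 (exact permutation p = 0.00309 within genotypes, adjusted p = 0.162). With acinar markers r was 0.722 (adjusted permutation p = 0.0979). Duct markers averaged 7.70 to 8.42 in hIAPP-TgxBACE2-KO islets, 7.46 to 7.91 in hIAPP-Tg islets, 7.54 to 7.95 in BACE2-KO islets and 7.38 to 7.86 in WT islets. Of the duct list, 8 genes were measured and Cftr was under the filter level. The genes most like Clu were Reg2 (r = 0.920) and Reg1 (r = 0.913), secreted proteins of the regenerating family made by exocrine pancreas, and Krt8 (r = 0.903), a keratin of epithelial cells. The part of exocrine tissue in the spread of Clu was not tested.

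Apcs encodes serum amyloid P, a pentraxin made mainly by the liver that binds fibrils of every kind. It was barely above the filter level, with a mean of 3.55 and a range of 3.33 to 3.96 over the 12 arrays. Its genotype means lay within 0.11 of each other and all groups overlapped.

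The 2 proteoglycans of the set are Hspg2, which encodes perlecan of basement membranes, and Agrn, which encodes agrin. Hspg2 set 1 read 6.09, 5.77 and 5.88 in hIAPP-TgxBACE2-KO islets, 5.91, 5.82 and 5.94 in hIAPP-Tg islets, 5.98, 6.08 and 5.88 in BACE2-KO islets and 5.69, 6.16 and 6.13 in WT islets. Its genotype means spanned 0.10, and the WT arrays alone spanned more than that. Set 2 had a range of 4.33 to 5.08 and no relation to set 1 (r = -0.03).

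Agrn set 1 read 6.24, 6.59 and 6.04 in hIAPP-TgxBACE2-KO islets, 6.07, 4.91 and 5.81 in hIAPP-Tg islets, 6.23, 5.46 and 6.06 in BACE2-KO islets and 5.93, 5.80 and 5.93 in WT islets. The hIAPP-TgxBACE2-KO arrays were all above the WT arrays, and hIAPP-Tg replicate 2 was the lowest of the 12. Against WT islets the hIAPP-TgxBACE2-KO level was higher by 0.40 (SE 0.28, limma adjusted p = 0.729), by 0.25 without hIAPP-TgxBACE2-KO replicate 2 and by 0.14 with the mean of both probe sets. Against hIAPP-Tg islets it was higher by 0.69 (SE 0.28, unadjusted p = 0.0270, limma adjusted p = 0.509), and by 0.35 without hIAPP-Tg replicate 2. The interaction was 0.66 (SE 0.39, limma adjusted p = 0.9995), and 0.32 either without hIAPP-Tg replicate 2 or with the mean of both probe sets. Set 2 of Agrn was under the filter level and did not follow set 1 (r = -0.08), and with the mean of both sets the hIAPP-TgxBACE2-KO minus hIAPP-Tg difference was 0.26.

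Agrn also rose with the duct markers, though not past the test over all 12 arrays (r = 0.766, adjusted permutation p = 0.0979, and rho = 0.799, adjusted permutation p = 0.0773). Without the 2 arrays farthest from the median r was 0.895 (adjusted permutation p = 0.0302). For deviations from genotype means r was 0.724 (exact permutation p = 0.00926 within genotypes, adjusted p = 0.162). The part of duct tissue in its spread was not tested.

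Of the peptide-degrading enzymes, Ide was the most even by its set 1. It encodes insulin-degrading enzyme, which cleaves insulin and islet amyloid polypeptide. Set 1 read 8.34, 8.53 and 8.57 in hIAPP-TgxBACE2-KO islets, 8.58, 8.49 and 8.48 in hIAPP-Tg islets, 8.68, 8.56 and 8.58 in BACE2-KO islets and 8.54, 8.58 and 8.54 in WT islets. Its pooled standard deviation was at the 4.9th percentile of the tested genes. The 95% intervals bounded the difference to between -0.21 and 0.14 for hIAPP-Tg against WT islets, between -0.12 and 0.23 for BACE2-KO against WT islets and between -0.21 and 0.14 for hIAPP-TgxBACE2-KO against hIAPP-Tg islets.

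In some comparisons sets 3 and 4 of Ide differed more than set 1. Set 3 read 7.42, 7.54 and 7.32 in BACE2-KO islets and 7.13, 7.22 and 7.19 in WT islets, a difference of 0.25 without overlap (SE 0.13, limma adjusted p = 0.932 over all probe sets). Set 4 differed by 0.47 between hIAPP-TgxBACE2-KO and hIAPP-Tg islets (SE 0.21, unadjusted p = 0.0383, limma adjusted p = 0.582). Set 1 showed neither difference, at 0.05 and -0.04, and correlated with sets 3 and 4 only at r = 0.374 and r = 0.471. Averaged over transgene states, set 3 was higher by 0.24 with BACE2 loss (SE 0.09, unadjusted p = 0.0173, limma adjusted p = 0.372). Set 4 was higher by 0.305 (SE 0.15, limma adjusted p = 0.535), while sets 1 and 2 differed by 0.01 and 0.03.

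Mme encodes neprilysin, a membrane-bound peptidase. Its only probe set had a mean of 3.06 and a range of 2.83 to 3.31, below the filter level on every array. Without the filter, the hIAPP-TgxBACE2-KO minus hIAPP-Tg difference was -0.27 (SE 0.12, unadjusted p = 0.0463), at a level where the array may not measure the transcript.

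Ece1 encodes endothelin-converting enzyme 1, which matures endothelins and also cuts amyloid peptides inside cells. Set 1 read 9.02, 9.62 and 9.55 in hIAPP-TgxBACE2-KO islets, 8.98, 9.47 and 9.77 in hIAPP-Tg islets, 9.35, 9.44 and 9.44 in BACE2-KO islets and 9.58, 9.49 and 9.57 in WT islets. The 2 lowest arrays, hIAPP-Tg replicate 1 and hIAPP-TgxBACE2-KO replicate 1, were also those farthest out on the first principal component. The BACE2-KO arrays were all below the WT arrays, by 0.14 on average (SE 0.18, limma adjusted p = 0.997). Ece1 followed the beta cell markers (r = 0.831, adjusted permutation p = 0.0504), but r was 0.282 without those same 2 arrays. For deviations from genotype means, with all 12 arrays, r was 0.938 (exact permutation p = 0.00926 within genotypes, adjusted p = 0.162). The genes most like it were Sun1 (r = 0.959), Wdfy3 (r = 0.943) and Fam120a (r = 0.941).

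Set 2 of Ece1 showed a pattern that set 1 did not. It read 5.32, 5.75 and 5.50 in hIAPP-TgxBACE2-KO islets, 5.46, 5.25 and 5.37 in hIAPP-Tg islets, 5.86, 5.92 and 5.40 in BACE2-KO islets and 5.84, 5.90 and 5.95 in WT islets. Both genotypes with the transgene were below WT without overlap. The difference was -0.54 in hIAPP-Tg islets (SE 0.16, unadjusted p = 0.00541, limma adjusted p = 0.917) and -0.37 in hIAPP-TgxBACE2-KO islets (SE 0.16, limma adjusted p = 0.694). For set 1 the hIAPP-Tg minus WT difference was -0.14 (SE 0.18), which turned to 0.07 without hIAPP-Tg replicate 1, and the 2 sets correlated at r = 0.269. The files do not say which transcripts each set reads.

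**Figure D4:**
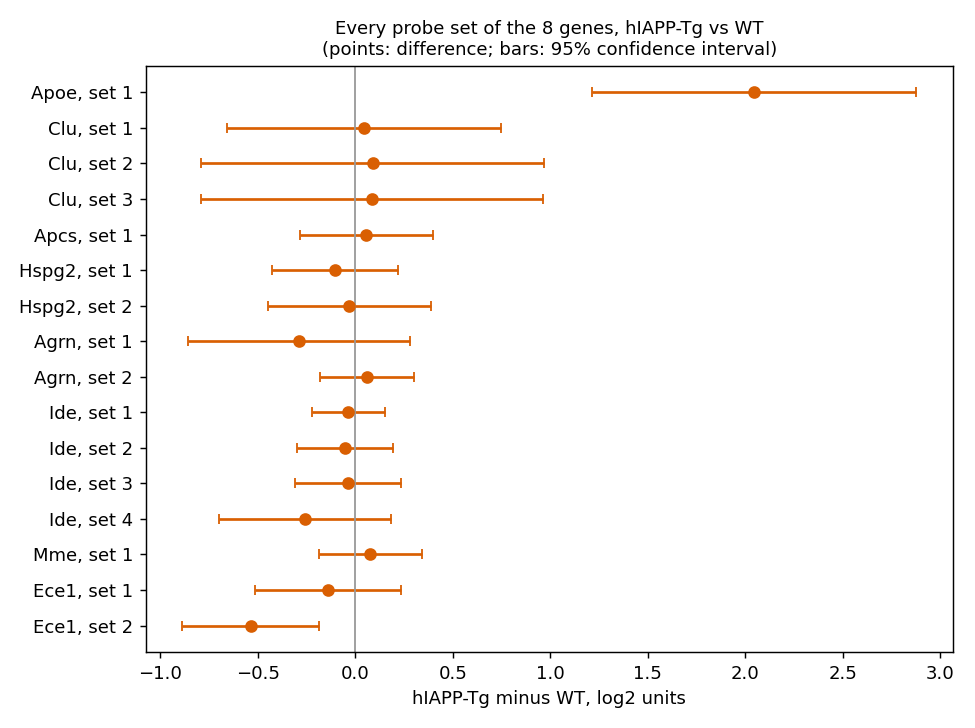
The hIAPP-Tg minus WT log2 difference of each of the 16 probe sets, from the limma fit over every probe set, with 95% confidence intervals. Apoe is the one set above 0 with its whole interval and Ece1 set 2 (-0.54) the one below it. Sets of a gene are numbered in falling order of their mean level.

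Counted over the 7 tested genes, the comparisons gave the following picture. In hIAPP-Tg against WT islets 0 of 7 passed the test (limma, 1 at an unadjusted p below 0.05), where 0.0156% of all genes passed, and 1 of 7, Apoe, had no overlap, where 9.16% of all genes had none. In BACE2-KO against WT islets 0 of 7 passed (0 unadjusted, 0.125% of all genes), and 1 of 7, Ece1, did not overlap (12.9% of all genes). In hIAPP-TgxBACE2-KO against WT islets 0 of 7 passed (1 unadjusted, 0.133% of all genes), and 2 of 7, Apoe and Agrn, did not overlap (14.9% of all genes).

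In hIAPP-TgxBACE2-KO against hIAPP-Tg islets 0 of 7 passed (limma, 2 unadjusted, Apoe and Agrn, with 0.101% of all genes passing), and 0 of 7 were without overlap (11.1% of all genes). In hIAPP-TgxBACE2-KO against BACE2-KO islets 0 of 7 passed (0 unadjusted), no gene of all those tested passed (0% of all genes, with 569 at an unadjusted p below 0.05), and 0 of 7 were without overlap (9.68% of all genes). For the interaction and for the averaged transgene difference 0 of 7 passed (1 unadjusted in each, Apoe), with 0.0078% of all genes passing in each. For BACE2 loss averaged over transgene states 0 of 7 passed (0 unadjusted), with 0.92% of all genes passing. Read against these backgrounds, the counts are no result about the 7 genes as a group. The comparisons share arrays and are not independent. The median difference of the 7 genes was -0.04 in hIAPP-Tg against WT islets, 0.03 in BACE2-KO against WT islets and -0.01 in hIAPP-TgxBACE2-KO against hIAPP-Tg islets, beside -0.03, 0.01 and 0.03 over all tested genes.

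The 8 genes did not move as a block. Over the 12 arrays the pairwise correlations among the 7 tested genes ran from -0.564, between Apcs and Ece1, to 0.409, between Clu and Agrn. Apoe correlated at 0.115 with Clu and at -0.051 with Ece1.

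Other genes of the same pathway were read in 4 lists, and 1 call came from them over the 8 comparisons, for averaged BACE2 loss, where 0.92% of all genes passed. One call in lists of this size is no result about the pathway. The median differences of these lists lay between -0.05 and 0.12 in the 5 comparisons of 2 genotypes, beside -0.03 to 0.03 over all tested genes. The call was Abcg1, which encodes an exporter of cholesterol and phospholipid and was in the list of uptake and lipid transport genes. It averaged 9.58 ± 0.04 in hIAPP-TgxBACE2-KO islets, 9.95 ± 0.04 in hIAPP-Tg islets, 9.68 ± 0.04 in BACE2-KO islets and 9.91 ± 0.08 in WT islets (SD, n = 3 each). All 6 arrays without BACE2, of which the highest was at 9.72, were below all 6 arrays with it, of which the lowest was at 9.83. Averaged over transgene states Abcg1 fell by 0.30 with BACE2 loss (SE 0.05, limma adjusted p = 0.0100), and by 0.27 with an adjusted p of 0.114 when its probe sets were averaged. The separate differences were -0.23 in BACE2-KO against WT islets (limma adjusted p = 0.373) and -0.37 in hIAPP-TgxBACE2-KO against hIAPP-Tg islets (limma adjusted p = 0.0538).

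In the same list 14 of 19 genes were tested and 1 passed for BACE2 loss. None passed in hIAPP-Tg against WT islets (limma, 2 unadjusted, beside 4.52% of all genes), where the median difference was 0.03. Tyrobp (0.97, SE 0.36, limma adjusted p = 0.950) and Msr1, a scavenger receptor of macrophages (0.68, SE 0.29, limma adjusted p = 0.950), had the smallest p there, both without overlap. In the list of other amyloid-binding proteins and chaperones 20 of 29 genes were tested, and none passed in any of the 8 comparisons. Per comparison 1 to 4 had an unadjusted limma p below 0.05, as had 2.4% to 11.45% of all genes. Lyz2 differed by 1.81 in hIAPP-Tg against WT islets (SE 0.33, limma adjusted p = 0.568) and by -1.34 in hIAPP-TgxBACE2-KO against hIAPP-Tg islets (SE 0.33, limma adjusted p = 0.246). Lyz2 and Tyrobp are also macrophage markers of the list above. Ttr, the thyroxine carrier transthyretin and also an alpha cell marker here, was higher by 0.31 in BACE2-KO than in WT islets (SE 0.09, limma adjusted p = 0.385). With the transgene Ttr read 12.47, 12.32 and 12.31 without BACE2 and 12.22, 12.47 and 12.53 with it. All 10 tested alpha cell markers, Ttr among them, were higher in BACE2-KO than in WT islets, with a median of 0.38. Of all tested genes 52.47% were higher there, with a median of 0.01. None of the 10 passed the test, where 0.125% of all genes passed (limma, 3 unadjusted, beside 6.28% of all genes). Gsn, which encodes the actin-severing protein gelsolin, was lower by 0.35 in hIAPP-TgxBACE2-KO than in WT islets (SE 0.09, limma adjusted p = 0.285).

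Among the other degrading proteases 15 of 20 genes were tested. None passed in any of the 8 comparisons (limma, 1 to 2 unadjusted, beside 2.4% to 11.45% of all genes). The list holds Bace2 itself, which was lower by 0.24 in hIAPP-TgxBACE2-KO than in WT islets (SE 0.10, limma unadjusted p = 0.0322, adjusted p = 0.539). Ctsd, the lysosomal aspartyl protease cathepsin D, averaged 9.74 ± 0.09 in hIAPP-TgxBACE2-KO islets and 10.01 ± 0.09 in hIAPP-Tg islets (SD, n = 3 each), a difference of -0.27 without overlap (SE 0.07, limma adjusted p = 0.313). Without the transgene it averaged 9.89 ± 0.07 in BACE2-KO islets and 9.90 ± 0.04 in WT islets. Htra1, a secreted serine protease, averaged 4.70 ± 0.14 in BACE2-KO islets and 3.82 ± 0.44 in WT islets, a difference of 0.88 without overlap (SE 0.26, limma adjusted p = 0.419). WT replicates 1 and 3 read 3.57 and 3.56, near the filter level of 3.43. With the transgene Htra1 read 4.48, 4.09 and 4.02 without BACE2 and 4.08, 4.11 and 4.98 with it. Its interaction was -1.08 (SE 0.36, limma adjusted p = 0.9995).

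Among the heparan sulfate proteoglycans and the enzymes that build or trim their chains 19 of 27 genes were tested. None passed in any of the 8 comparisons (limma, 0 to 6 unadjusted). In hIAPP-TgxBACE2-KO against WT islets 6 of 19 were unadjusted (8.43% of all genes) and 6 had no overlap (14.9%). Against hIAPP-Tg islets these counts were 6 (8.37%) and 5 (11.1%). For averaged BACE2 loss 6 were unadjusted (11.45%). Whether the list as a group differed was not tested. Sdc4, the cell-surface proteoglycan syndecan 4, read 8.24, 8.28 and 8.54 in hIAPP-TgxBACE2-KO islets and 8.96, 8.70 and 8.84 in hIAPP-Tg islets, a difference of -0.48 without overlap (SE 0.14, limma adjusted p = 0.365). Tgfbr3, the betaglycan co-receptor of TGF-beta, differed by -0.74 in the same comparison (SE 0.20, limma adjusted p = 0.313). Sulf2, an enzyme that removes sulfate from heparan chains, was higher by 0.50 in hIAPP-Tg than in WT islets (SE 0.18, limma adjusted p = 0.950). Sdc4 was also lower in BACE2-KO than in WT islets, by 0.34 with overlapping arrays (SE 0.14, limma adjusted p = 0.755). Averaged over transgene states Sdc4 was lower by 0.41 with BACE2 loss (SE 0.10, limma adjusted p = 0.102). Glce, of the same list, was higher by 0.40 (SE 0.10, limma adjusted p = 0.111).

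**Figure D5:**
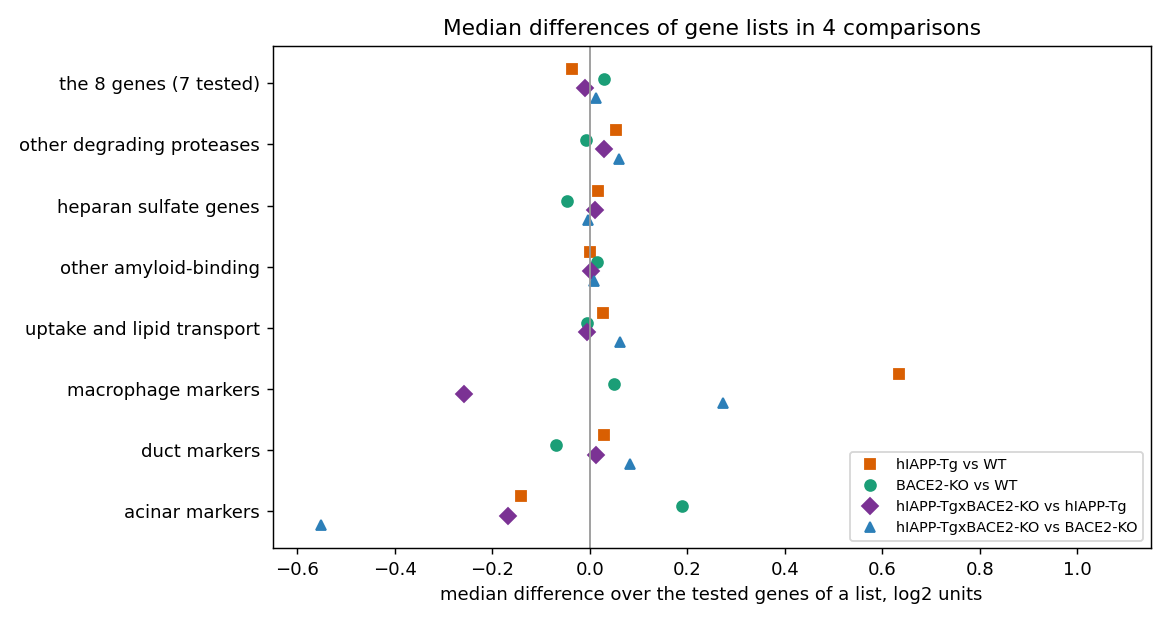
Median log2 difference over the tested genes of each list (rows) in 4 comparisons (symbols), the first-named genotype minus the second. The lists of amyloid genes stay close to 0, the macrophage markers lie at 0.63 in hIAPP-Tg against WT islets and at -0.26 in hIAPP-TgxBACE2-KO against hIAPP-Tg islets, with the acinar markers at -0.55 in hIAPP-TgxBACE2-KO against BACE2-KO islets.

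The 8 genes lie on 6 chromosomes in the RefSeq annotation of the mouse, with Hspg2, Agrn and Ece1 on chromosome 4. Hspg2 and Ece1 are near neighbours there, with 4 protein-coding genes starting between them. None of the 8 shares chromosome 16 with Bace2.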

How the data were processed

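The authors deposited 1 log2 value for each probe set and array. The submitters' processing notes name RMA, which corrects background, normalizes by quantiles and summarizes probes, and affy, with versions and genome build not given in the sources used here. Precision is limited by the number of arrays. Array medians ran from 4.22 to 4.35. Of 45141 probe sets, a single symbol named 28898, several symbols named 551, and the platform table left 15692 out. Each gene was read by its highest-mean probe set, and 12825 of 17097 genes above the 25th percentile (3.43) were tested with limma 3.58.1 in R 4.3.3 (a mean per genotype, 12 arrays, eBayes with a trend, Benjamini-Hochberg). Correlations over arrays used 100000 two-sided permutations. Those of deviations from genotype means used all 1296 rearrangements within genotypes, and this small number limits how low their adjusted p can fall. The script was tested on simulated data. Alternatives changed the filter, the choice of probe set, the scaling, the variance model, the arrays fitted, the replicate block and marker covariates, and left out each array in turn. The named genes are the 8 members with every probe set, up to 2 genes of smallest p and every call per list, and the 3 genes most alike. Members and lists were chosen with earlier results of these data known.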

Additional observations from a re-analysis of the deposited data

How the results depend on the processing

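With 3 arrays per genotype and a pooled standard deviation of 0.62 for Apoe, the arrays bound the differences of the variable genes loosely. Those of Ide were bound closely for set 1, and less closely for its other sets. Of 7 tested genes none passed in 7 of the 8 comparisons under any alternative run. The exception was hIAPP-Tg against WT islets, where 1 gene, Apoe, passed when only the groups compared were fitted. Over its 26 alternatives that difference ran from 1.17 (macrophage mean as a covariate) to 2.21, with limma adjusted p from 0.00939 to 0.998. The difference of Agrn between hIAPP-Tg and WT islets was -0.29 and turned to 0.05 (0.0533) without hIAPP-Tg replicate 2, the lowest array, against -0.53 without hIAPP-Tg replicate 1. Of the 56 differences of the 7 genes in the 8 comparisons, 39 changed sign in at least 1 alternative. Of the 15 larger than their own SE, that of Agrn was the 1 that did. The fall of Abcg1 with BACE2 loss ran from -0.35 to -0.27, and only its call was lost with the mean of its probe sets (-0.27, limma adjusted p = 0.114).

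Counts over all genes moved more than 1.5 times. They ran from 1 to 3 (2 in the fit reported) for hIAPP-Tg against WT, from 5 to 36 (16) for BACE2-KO against WT, from 0 without hIAPP-TgxBACE2-KO replicate 2 to 34 (17) for hIAPP-TgxBACE2-KO against WT, from 3 to 30 (13) for hIAPP-TgxBACE2-KO against hIAPP-Tg, from 0 to 2 (0) for hIAPP-TgxBACE2-KO against BACE2-KO, from 0 to 3 (1) for the interaction, from 0 to 2 (1) for the averaged transgene difference and from 46 to 205 (118) for averaged BACE2 loss. Some upper ends came from the fit of every probe set, which counts probe sets and not genes. These were the ones for hIAPP-Tg against WT, hIAPP-TgxBACE2-KO against hIAPP-Tg, the interaction and the averaged transgene difference. The causes were not tested.

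The labels do not say what arrays of the same number share. Of 18 same-number pairs 10 correlated above 0.1, the lowest was at -0.129, and the median was 0.141 against -0.070 for other pairs. All 6 pairs of replicate 1 were above 0, and 8 of 12 arrays correlated best with their own number. By these values arrays of the same number were more alike than others. What they share is not stated, and the fit reported did not use the number. With the replicate number as a block, 0 of the 7 genes passed in each comparison, and the count for averaged BACE2 loss was 205 against 118 without it.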
